A study of Rattus norvegicus with 6 samples.

Results

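The genes described here are 31 that encode lysosomal proteins, of 33300 genes in the deposited table. They comprise 11 glycosidases, 5 sulfatases, 4 lipid and thioester hydrolases, 1 peptidase, 4 activator and cholesterol-transfer proteins, 5 membrane proteins and the transcription factor Tfeb. They were chosen by name, with earlier results of the same comparison known, so their counts and calls are a description and no independent evidence of a direction. Where a name has several rows, the row with the highest mean FPKM (fragments per kilobase of gene, scaled for depth) over the 6 libraries is taken, but each of these names had 1 row. The cells were tendon stem/progenitor cells of the rat, precursors that reside in tendon, sequenced after 7 days of culture. The Control group (3 libraries) grew in F12 medium, and the NAC group (3 libraries) received N-acetyl-L-cysteine at 500 uM in it, a thiol antioxidant from which cells take cysteine. The labels describe both groups as mesenchymal stem cells from tendon and enter tenogenic differentiation as their genotype, and the sources used here give no strain, sex, age or passage. Whether the 3 libraries of each group were separate cultures or animals is not stated, so a p-value here measures the spread between the deposited samples alone, which may be technical.

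Lysosomes are acidic organelles in which soluble hydrolases take apart glycans, glycosaminoglycans, sphingolipids and proteins, and in connective tissue cells they receive internalised collagen and proteoglycans. Most of these hydrolases are made in the endoplasmic reticulum, receive a mannose 6-phosphate tag in the Golgi and are carried by receptors to endosomes. Heavily glycosylated membrane proteins line the organelle, a proton pump (the V-ATPase) acidifies it, and TFEB with its relatives activates many lysosomal genes through the CLEAR element, an E-box with the core CACGTG.

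Because TFEB is 1 of the 31 genes, the promoters are shown first. RefSeq promoter windows of the GRCr8 build, from 250 bases before to 50 bases after the annotated start, were matched by symbol for 25 of the 31 genes, all but Arsa, Arsb, Asah1, Hexa, Ppt1 and Psap. The E-box core CACGTG, its own reverse complement, was searched on both strands and lay in 7 of these 25 windows, those of Cd63, Gaa, Glb1, Idua, Lamp1, Mcoln1 and Sgsh. It lay in 6.42% of all 33469 windows and in 9.38% of the 9295 windows of genes tested below. The longer TCACGTGA, which contains that core, lay in 2 of the 25 (Lamp1 and Mcoln1), against 0.777% of all windows and 1.73% of those of tested genes. The full CLEAR palindrome, which contains both, lay in 0 of the 25, against 0.233% and 0.538%. Letters that match are a description and not a site of binding. The Lamp1 window held 5 copies of the core and that of Mcoln1 2, and each of the other 5 held 1. Stretches that end at the annotated start are shown 5′ to 3′ for both of these genes and for Glb1 and Gaa, 2 hydrolases whose RNA rose, with the core in capitals.
Lamp1 (GRCr8 chr16:83075064-83075263, minus strand): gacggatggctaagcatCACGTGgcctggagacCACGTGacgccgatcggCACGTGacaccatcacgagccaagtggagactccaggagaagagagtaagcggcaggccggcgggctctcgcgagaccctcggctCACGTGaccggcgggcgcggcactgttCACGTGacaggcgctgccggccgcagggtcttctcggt
Mcoln1 (GRCr8 chr12:6358178-6358257, plus strand): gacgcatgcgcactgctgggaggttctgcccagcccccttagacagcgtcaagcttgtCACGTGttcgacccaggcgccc
Mcoln1, the 18 bases that follow (GRCr8 chr12:6358258-6358275, plus strand): cgctCACGTGaccgcggc
Glb1 (GRCr8 chr8:122963588-122963717, plus strand): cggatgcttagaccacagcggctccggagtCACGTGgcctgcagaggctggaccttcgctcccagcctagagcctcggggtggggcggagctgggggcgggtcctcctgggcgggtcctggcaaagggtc
Gaa (GRCr8 chr10:105028255-105028354, plus strand): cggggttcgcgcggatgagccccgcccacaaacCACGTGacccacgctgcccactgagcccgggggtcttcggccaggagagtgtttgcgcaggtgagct

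Of the whole series, the following facts bear on these genes. Depth was 12487215 to 14941949 reads per library, as worked back from the FPKM values. Genes with a mean of at least 1 FPKM over the 6 libraries (12733 genes) were tested with limma on log2(FPKM + 1), and a gene is called higher or lower where the Benjamini-Hochberg adjusted p over all of them is under 0.05. As deposited, 774 genes (6.08%) were called higher and 346 (2.72%) lower, with a median log2 fold change of -0.0063. Divided by the total reads of each library instead (library totals), the median of all tested genes was -0.16. By this scaling 467 genes (3.67%) were called higher and 3722 (29.2%) lower, so a direction can depend on the scaling. Both scalings are given below for many genes and lists, and where none is named a value is as deposited. With quantile normalization the counts higher and lower were 567 and 408, and with limma voom on the recovered reads 1054 and 517. Counts at an unadjusted p under 0.05 are given below without their share over all tested genes. Leaving out 1 library gave 379 and 83 (Control 1), 362 and 87 (Control 3), 294 and 56 (NAC 1), 264 and 51 (NAC 2) and 456 and 141 (NAC 3). All 9 tendon markers were measured, and 4 of them rose (Dcn, Tnc, Col1a1 and Col1a2). The others were not called: Tnmd (log2 fold change 0.56), Thbs4 (0.47) and Fmod (0.25), and the transcription factors Scx (-0.094) and Mkx (-0.38). Of 14 markers of macrophages, which are rich in lysosomes, 7 were listed at 0 in all libraries, among them Ptprc, Cd163 and C1qa. The summed level of the 14, mostly of Cd14 and Lyz2, was 19.03 to 22.04 FPKM in Control and 19.999 to 22.71 FPKM with NAC. The osteoclast markers Calcr, Ocstamp and Dcstamp were listed at 0, and the summed level of the 6 markers, mostly of Ctsk and Mmp9, was 81.5 to 91.5 FPKM in Control and 129.8 to 144 FPKM with NAC. The part of cell makeup in the results below was not tested.

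All 31 lysosomal genes passed the filter, and those that rose with NAC were all soluble enzymes and activators. As deposited, 12 of the 31 rose (against 6.08% of all tested genes), 1 fell (against 2.72%) and 18 did not pass the test. The median log2 fold change was 0.17, against -0.0063 over all tested genes, and the values ran from -0.22 (Mcoln1) to 0.74 (Man2b1). The 12 that rose were 7 glycosidases, 3 sulfatases and the activator proteins Psap and Gm2a, and all 12 belong to the 24 soluble members, whose median was 0.28. Of the 6 members that span the membrane (Npc1 included) 0 rose and 1 fell, and their median was -0.058. At an unadjusted p under 0.05, and by limma voom on the recovered reads, Lamp2 was higher. This split into soluble and membrane proteins was made after the values were seen, and the difference between the classes was not tested. With library totals 9 members rose (against 3.67%) and 10 fell (against 29.2%), and the median was -0.0037 against -0.16 over all tested genes. In bulk RNA, a change in the number of cells of a kind and a change of RNA per cell cannot be told apart. As deposited, the NAC libraries lay above all Control libraries in 20 members (against 16.7% of tested genes) and below them in 3 (against 15.9%). With library totals they lay above in 10 (against 5.73%) and below in 12 (against 44.6%). When 1 library was left out, 8 to 12 members rose, 1 fell without Control 2, and 0 fell without any other single library.

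**Figure D1:**
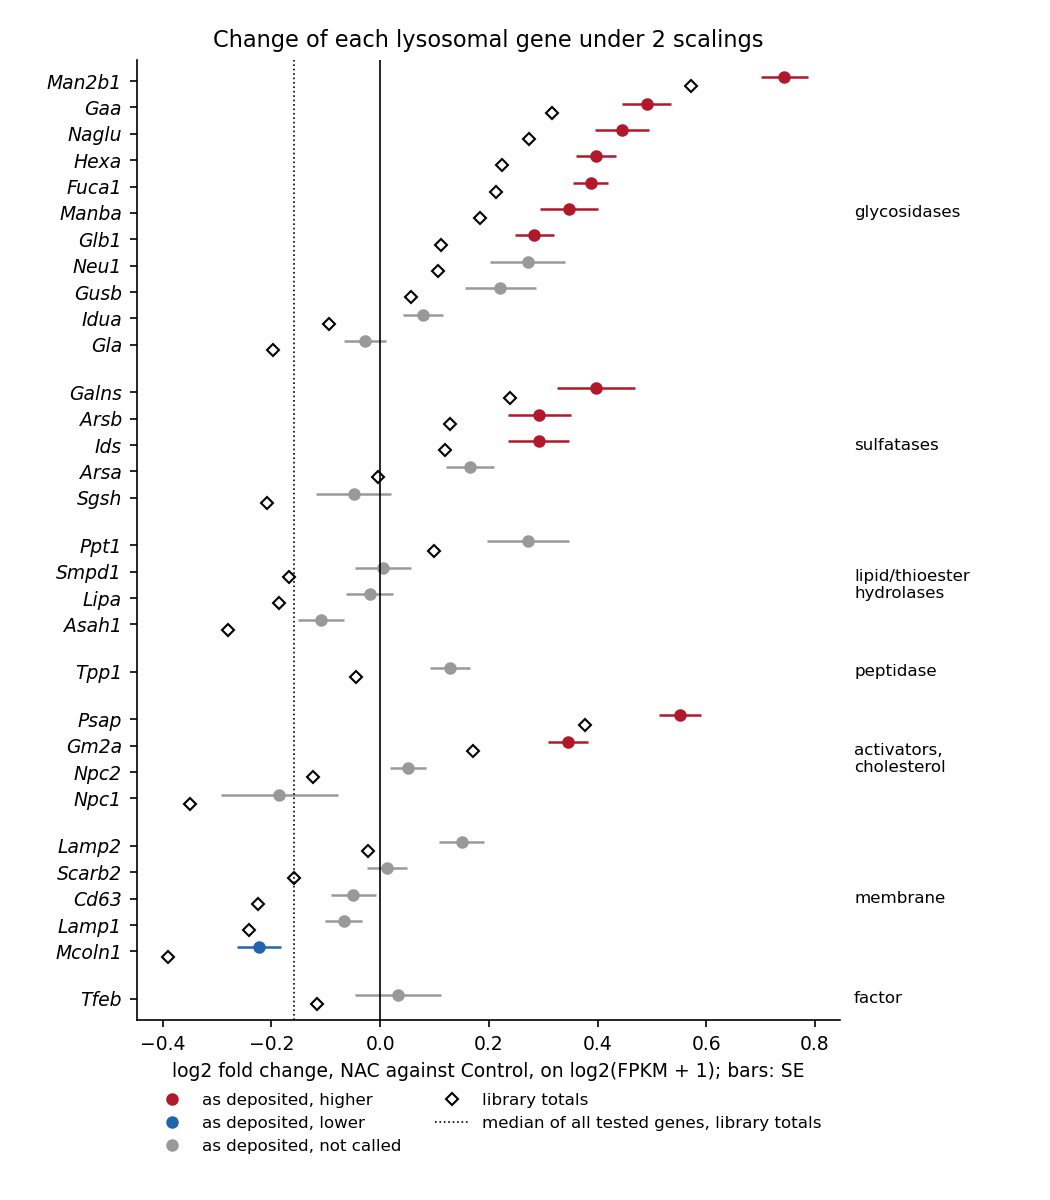
Log2 fold change of each of the 31 genes with NAC against Control on log2(FPKM + 1), by role, as deposited (filled circles with SE, coloured by the limma call) and with library totals (open diamonds). Most glycosidases lie right of 0 under both scalings, while Lamp1, Cd63 and Mcoln1 lie left of 0 under both, and the dotted line marks the median of all tested genes with library totals (-0.16).

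Together the 31 genes took 0.772%, 0.757% and 0.760% of the reads in Control and 0.810%, 0.811% and 0.804% with NAC. This share does not depend on the authors' scaling, and the 3 NAC libraries lay above the 3 Control libraries. Psap took 0.146%, 0.152% and 0.148% of the reads in Control and 0.195%, 0.196% and 0.189% with NAC, and without it the separation was gone. The other 30 genes took 0.626%, 0.605% and 0.612% in Control and 0.615%, 0.615% and 0.615% with NAC, which lay within the Control range (Psap was set apart after its values were seen). That sum joins rises and falls: with library totals 9 of the 31 genes, Psap included, were called higher and 10 lower. The genes had 134 to 29232 reads per gene and library. Their median level over the 6 libraries was 63.3 FPKM, against 9.84 FPKM for all tested genes, and ranged from 6.16 FPKM (Tfeb) to 738 FPKM (Cd63). Within a group the median coefficient of variation was 3.07% in Control and 3.68% with NAC, against 7.34% and 6.57% for all tested genes. Neither this comparison nor the shares of all tested genes given in this text were matched for level. The widest spread was that of Npc1 in Control (16.7%).

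**Figure D2:**
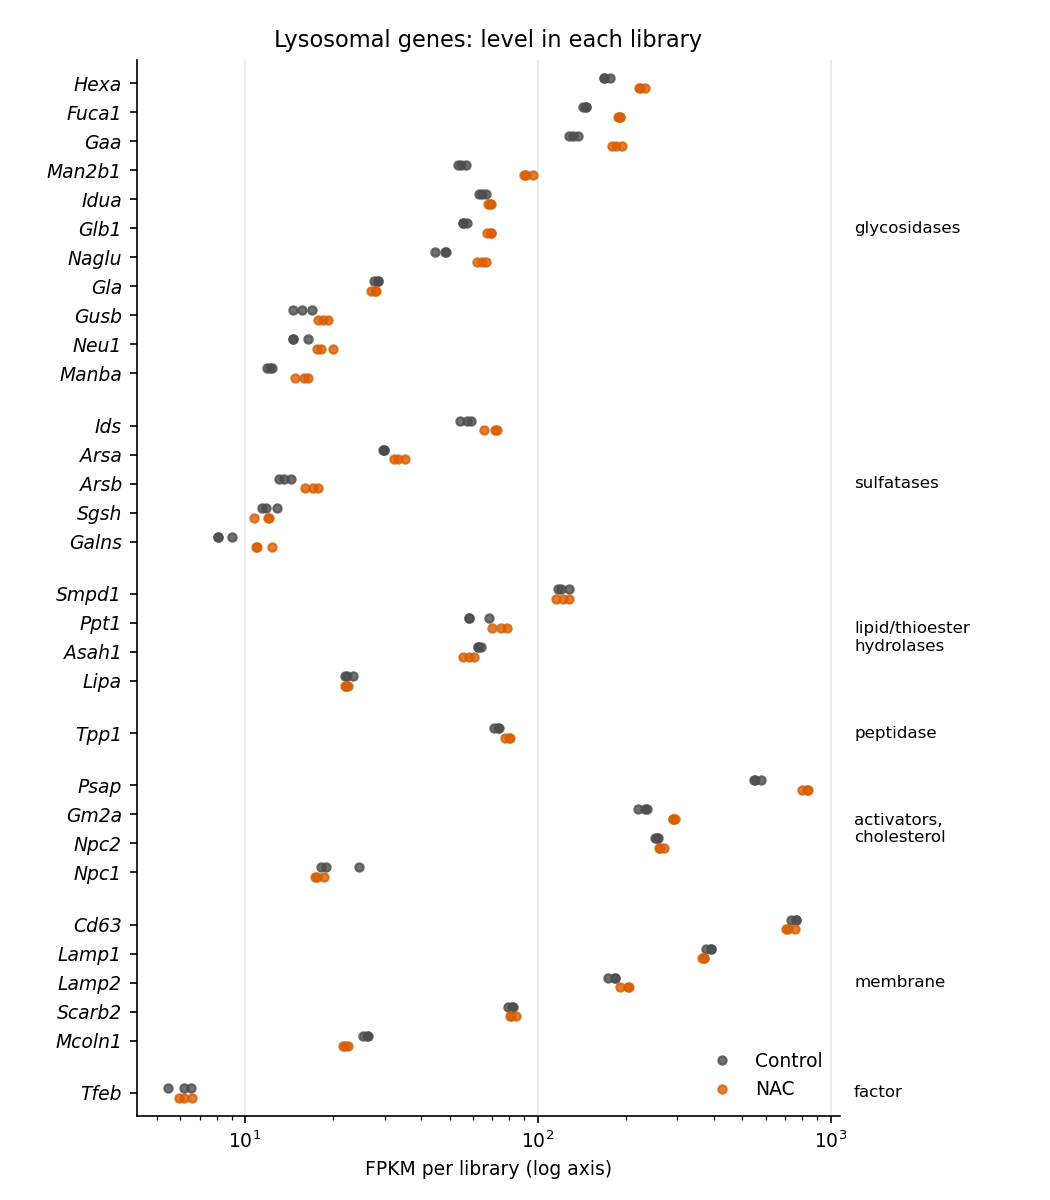
FPKM of each gene in each of the 3 Control and 3 NAC libraries (1 point per library, log axis), grouped by role and ordered by mean level within a role. The glycosidases from Hexa down to Manba, Gla apart, have all NAC points right of all Control points, whereas the points of Gla, Smpd1, Lipa, Scarb2, Cd63 and Tfeb overlap.

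The 11 glycosidases cleave single sugars from glycans, glycolipids and glycosaminoglycans. Of these, 7 rose and none fell, against 6.08% and 2.72% of all tested genes (0 lower by limma voom or at an unadjusted p under 0.05). Their median log2 fold change was 0.35 as deposited and 0.18 with library totals. Man2b1 (ENSRNOG00000023910; chromosome 19, 26196837 to 26216267 in the deposited table, whose rat build is not stated) encodes the lysosomal alpha-mannosidase, which trims mannose from N-glycans. It stood at 54.7, 56.8 and 53.2 FPKM in Control and at 96.4, 89.97 and 91.4 FPKM with NAC. All 3 NAC libraries lay above all 3 Control libraries, with means of 54.9 ± 1.79 and 92.6 ± 3.39 FPKM (SD, n = 3) and log2 fold changes of 0.74 ± 0.0436 (SE, limma adjusted p = 5.20e-04) as deposited and 0.57 with library totals (adjusted p = 0.00177). Gaa, the acid alpha-glucosidase that degrades glycogen, stood at 137, 132 and 128 FPKM in Control and at 179, 194 and 185 FPKM with NAC. Again the groups did not overlap (0.49 ± 0.0453, limma adjusted p = 0.00237, and 0.32 with library totals). Naglu, which removes N-acetylglucosamine from heparan sulfate, was at 48.1, 48.4 and 44.5 FPKM in Control and 64.5, 61.9 and 66.7 FPKM with NAC, a rise of 0.44 ± 0.0491 (log2, SE, limma adjusted p = 0.00391).

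Hexa encodes the alpha subunit of a hexosaminidase that degrades GM2 ganglioside. Its levels were 177, 168 and 168 FPKM in Control and 232, 224 and 221 FPKM with NAC (log2 fold change 0.40 ± 0.0374, limma adjusted p = 0.00242, and 0.22 with library totals). Every NAC library was above every Control library. Fuca1, the alpha-L-fucosidase, rose from 145 ± 2.44 to 190.2 ± 2.48 FPKM (0.39 ± 0.0322, limma adjusted p = 0.00151). Man2b1, Gaa, Naglu, Hexa and Fuca1 also rose with library totals, and their calls held in each of the 16 alternative settings.

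Manba, the beta-mannosidase, averaged 12.2 ± 0.241 FPKM in Control and 15.8 ± 0.808 FPKM with NAC (limma adjusted p = 0.0134), and Glb1, the beta-galactosidase that cleaves GM1 ganglioside and keratan sulfate, 56.2 ± 1.16 FPKM and 68.6 ± 1.28 FPKM (adjusted p = 0.00702). The Glb1 call ended with library totals (0.11, adjusted p = 0.0568) and that of Manba without Control 1, Control 3, NAC 1 or NAC 2 (log2 fold change 0.32 to 0.35). The other 4 glycosidases did not pass the test. The sialidase Neu1 stood at 14.6, 16.4 and 14.6 FPKM in Control and 19.9, 17.6 and 18.2 FPKM with NAC (log2 fold change 0.27, adjusted p = 0.0601), where the groups did not overlap. Neu1 passed without Control 2 (0.33, adjusted p = 0.0366), by limma voom (0.29, adjusted p = 0.0291) and with the filter at 5 FPKM (adjusted p = 0.0447). With library totals it did not pass (0.11). Gusb, the beta-glucuronidase, was 0.22 higher on the log2 scale (adjusted p = 0.0842) and Idua, the alpha-L-iduronidase, 0.079 (-0.093 with library totals). Gla, the alpha-galactosidase, had the lowest log2 fold change of the glycosidases (-0.028, adjusted p = 0.694), with means of 28.2 ± 0.453 FPKM in Control and 27.6 ± 0.520 FPKM with NAC, and it was called lower with library totals (-0.20). In 10 of the 11 glycosidases the NAC libraries lay above the Control libraries, a separation in that direction that 16.7% of all tested genes showed.

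The 5 sulfatases take sulfate groups off glycosaminoglycans and sulfolipids. Of these, 3 were higher and none lower, against 6.08% and 2.72% of all tested genes (0 lower also by limma voom or at an unadjusted p under 0.05). Their median log2 fold change was 0.29 as deposited and 0.12 with library totals. Galns, which acts on keratan sulfate and chondroitin 6-sulfate, stood at 9.03, 8.12 and 8.10 FPKM in Control and 12.3, 10.98 and 10.9 FPKM with NAC. The groups did not overlap (0.40 ± 0.0711, limma adjusted p = 0.0212, and 0.24 with library totals), but the call ended without Control 3, NAC 1 or NAC 2 (0.34 to 0.42). Ids, the iduronate sulfatase of heparan and dermatan sulfate breakdown, was at 54.1, 57.2 and 59.3 FPKM in Control and 71.7, 72.5 and 65.3 FPKM with NAC (0.29 ± 0.0559, adjusted p = 0.0268). Arsb, which acts on dermatan and chondroitin sulfate, was at 13.6, 13.1 and 14.3 FPKM in Control and 17.02, 17.8 and 16.1 FPKM with NAC (0.29 ± 0.0572, adjusted p = 0.0283). All NAC libraries were above all Control libraries for both genes. Both calls were less stable: that of Ids ended with library totals (0.12), with quantile normalization (0.24, adjusted p = 0.0672), with eBayes without a trend (adjusted p = 0.0579) and without Control 1, Control 3, NAC 1 or NAC 2 (0.26 to 0.32), and that of Arsb with library totals (0.13) and without any library but NAC 3 (0.26 to 0.33 without Control 1, Control 2, Control 3, NAC 1 or NAC 2). Arsa, which removes sulfate from sulfatide, averaged 29.8 ± 0.113 FPKM in Control and 33.6 ± 1.45 FPKM with NAC (0.17, adjusted p = 0.0660), and its value turned to -0.0037 with library totals. Limma voom on the recovered reads called Arsa higher (0.17, adjusted p = 0.0349). Sgsh, the heparan N-sulfatase, had the fewest reads of the 31 genes and stood at 12.9, 11.4 and 11.8 FPKM in Control and 11.99, 10.7 and 12.1 FPKM with NAC, groups that overlapped (-0.048, adjusted p = 0.701).

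Psap and Gm2a, which encode the helper proteins that lift sphingolipids out of membranes for the hydrolases, both rose. Psap (ENSRNOG00000000571; chromosome 20, 29831314 to 29856875 in the deposited table) encodes prosaposin, the precursor of the saposins. It was the second most abundant of the 31 genes over the 6 libraries, at 549, 581 and 553 FPKM in Control and 832, 838 and 797 FPKM with NAC. Every NAC library was above every Control library (0.55 ± 0.0393, limma adjusted p = 7.35e-04, and 0.38 with library totals, adjusted p = 0.00249). With NAC its level passed that of Cd63, the most abundant of the 31 genes in Control. Gm2a, the GM2 activator that presents GM2 ganglioside to its hydrolase, stood at 236, 220.5 and 232 FPKM in Control and 291, 295 and 289 FPKM with NAC (0.35 ± 0.0373, limma adjusted p = 0.00365, and 0.17 with library totals). The Psap call held in all 16 alternative settings, and that of Gm2a ended with quantile normalization alone (0.20, adjusted p = 0.0568). Within each library Gm2a was 134%, 131% and 138% of Hexa in Control and 125%, 132% and 131% with NAC, ranges that overlapped.

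No lipid or thioester hydrolase passed the test: of 4 members 0 rose and 0 fell by limma, against 6.08% and 2.72% of all tested genes. Of the 4, 2 (Ppt1 and Asah1) had an unadjusted p under 0.05, a looser threshold whose share of all tested genes is not given. Limma voom on the recovered reads called Ppt1 higher, as it did 1054 of all tested genes. Smpd1, the acid sphingomyelinase, stood at 127, 117 and 120.1 FPKM in Control and 128, 122 and 116 FPKM with NAC, and the groups overlapped (log2 fold change 0.0054 ± 0.0520, adjusted p = 0.962). Lipa, the acid lipase that frees cholesterol from its esters, was at 22.5 ± 0.758 and 22.2 ± 0.303 FPKM (-0.019, adjusted p = 0.821). Asah1, the acid ceramidase, was at 62.4, 63.8 and 62.3 FPKM in Control and 58.4, 60.7 and 55.6 FPKM with NAC, where every NAC library was below every Control library (-0.11, adjusted p = 0.164), a separation in that direction that 15.9% of tested genes showed. Ppt1, a thioesterase that removes palmitate from proteins, stood at 68.4, 58.1 and 58.3 FPKM in Control and 78.5, 74.9 and 69.99 FPKM with NAC (0.27, adjusted p = 0.0747). Control 1 was its highest Control library, and without it the gene passed (0.35, adjusted p = 0.0397). With library totals Smpd1 (-0.17), Lipa (-0.19) and Asah1 (-0.28) were called lower, near the median of all tested genes (-0.16) for the first pair. The peptidase Tpp1 stood at 72.3 ± 1.49 and 79.2 ± 1.89 FPKM (0.13, adjusted p = 0.0792, and -0.044 with library totals).

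Npc1 and Npc2 hand cholesterol from the lysosome lumen to its membrane, and neither passed the test. Npc2, the soluble carrier, was at 252, 257 and 255 FPKM in Control and 259, 270.4 and 263 FPKM with NAC (0.051, adjusted p = 0.378), and its value turned to -0.12 with library totals, where it was called lower. Npc1, the membrane transporter, stood at 18.2, 24.5 and 18.96 FPKM in Control and 17.3, 18.6 and 17.6 FPKM with NAC (-0.19 ± 0.108, adjusted p = 0.324). Control 2 stood apart as the highest library, and without it the log2 fold change was -0.058. With library totals Npc1 was called lower (-0.35, adjusted p = 0.0379).

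Of the 5 membrane proteins, 0 rose by limma as deposited and 1 fell (against 6.08% and 2.72% of all tested genes), with a median log2 fold change of -0.049. Among so few genes, 0 higher is not set apart from 6.08%. With library totals 4 were called lower, against 29.2% of all tested genes (median -0.22 against -0.16). Mcoln1 (ENSRNOG00000000975; chromosome 12, 2054680 to 2068682 in the deposited table), the calcium channel TRPML1 of the lysosomal membrane, stood at 25.4, 26.1 and 26.3 FPKM in Control and 22.1, 22.5 and 21.7 FPKM with NAC. Its NAC libraries were all below its Control libraries (-0.22 ± 0.0403, limma adjusted p = 0.0222, and -0.39 with library totals, adjusted p = 0.00345). As deposited, the call was kept with Control 2 left out and lost without each of Control 1, Control 3, NAC 1, NAC 2 and NAC 3 (-0.24 to -0.21). Lamp1, a main glycoprotein of the lysosomal membrane, was at 391, 374 and 391 FPKM in Control and 369.6, 369.8 and 364 FPKM with NAC, lower in every NAC library (log2 fold change -0.067, adjusted p = 0.261). Lamp2, its relative that also serves chaperone-mediated autophagy, was at 183, 183 and 174 FPKM in Control and 204, 205 and 192 FPKM with NAC, higher in every NAC library (0.15, adjusted p = 0.0732), but -0.023 with library totals. Cd63, a tetraspanin of late endosomes and exosomes, stood at 759.5, 759 and 732 FPKM in Control and 714, 704 and 758 FPKM with NAC (-0.049, adjusted p = 0.495). Scarb2, the receptor LIMP-2 that carries glucocerebrosidase to lysosomes, was at 81.2 ± 1.69 and 81.98 ± 2.15 FPKM (0.013, adjusted p = 0.859). Lamp1 and Cd63 were called lower with library totals (-0.24 and -0.22) and with quantile normalization (-0.26 and -0.27), and Scarb2 with library totals (-0.16).

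Tfeb, the transcription factor of the list, had the lowest level of the 31 genes. It stood at 5.48, 6.56 and 6.21 FPKM in Control and 6.59, 6.18 and 5.96 FPKM with NAC, groups that overlapped (0.033 ± 0.0791, limma adjusted p = 0.830, and -0.12 with library totals). RNA levels do not measure where the protein is or how active it is. Of the 7 genes whose promoter window held CACGTG, Gaa (0.49) and Glb1 (0.28) rose and Mcoln1 (-0.22) fell, while Lamp1 (-0.067), Cd63 (-0.049), Sgsh (-0.048) and Idua (0.079) did not pass the test. Of all tested genes 6.08% rose and 2.72% fell. Lamp1, with the most copies of the core, was lower in every NAC library but not called (limma adjusted p = 0.261). That separation was shown by 15.9% of tested genes. Whether the motif has a part in these changes was not tested.

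A ratio between genes of the same library is free of the scaling. With 3 libraries against 3 an exact two-sided permutation test cannot go below 0.10, so none was run on such ratios. The 11 glycosidases summed to 756, 745 and 727 FPKM in Control and 983, 979.7 and 967 FPKM with NAC, and the 5 membrane proteins to 1441, 1425 and 1403 FPKM in Control and 1390, 1385 and 1416 FPKM with NAC. The glycosidase sum was thus 52.5%, 52.3% and 51.8% of the membrane sum in Control and 70.7%, 70.7% and 68.3% with NAC, a mean of 52.2 ± 0.337% and 69.9 ± 1.41% (SD, n = 3). The groups did not overlap, but these roles were set against each other after their values were seen, so the separation is a description and no test. The largest parts of the membrane sum in Control were Cd63 (mean 750 FPKM) and Lamp1 (385 FPKM), while Lamp2 was higher in every NAC library. Taken one by one against Lamp1, chosen after its values were seen, 20 of the other 30 genes had a higher ratio in all NAC libraries than in any Control library, and 1, Mcoln1, had a lower one. Over all other tested genes 23.7% were higher and 8.19% lower by this measure, which moves with Lamp1 itself. Man2b1 was 14.0%, 15.2% and 13.6% of Lamp1 in Control and 26.1%, 24.3% and 25.1% with NAC, and Psap 140.4%, 155% and 142% in Control and 225%, 227% and 219% with NAC. Scarb2, by contrast, was 21.1%, 21.9% and 20.3% of Lamp1 in Control and 21.9%, 22.8% and 22.2% with NAC, ranges that overlapped.

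**Figure D3:**
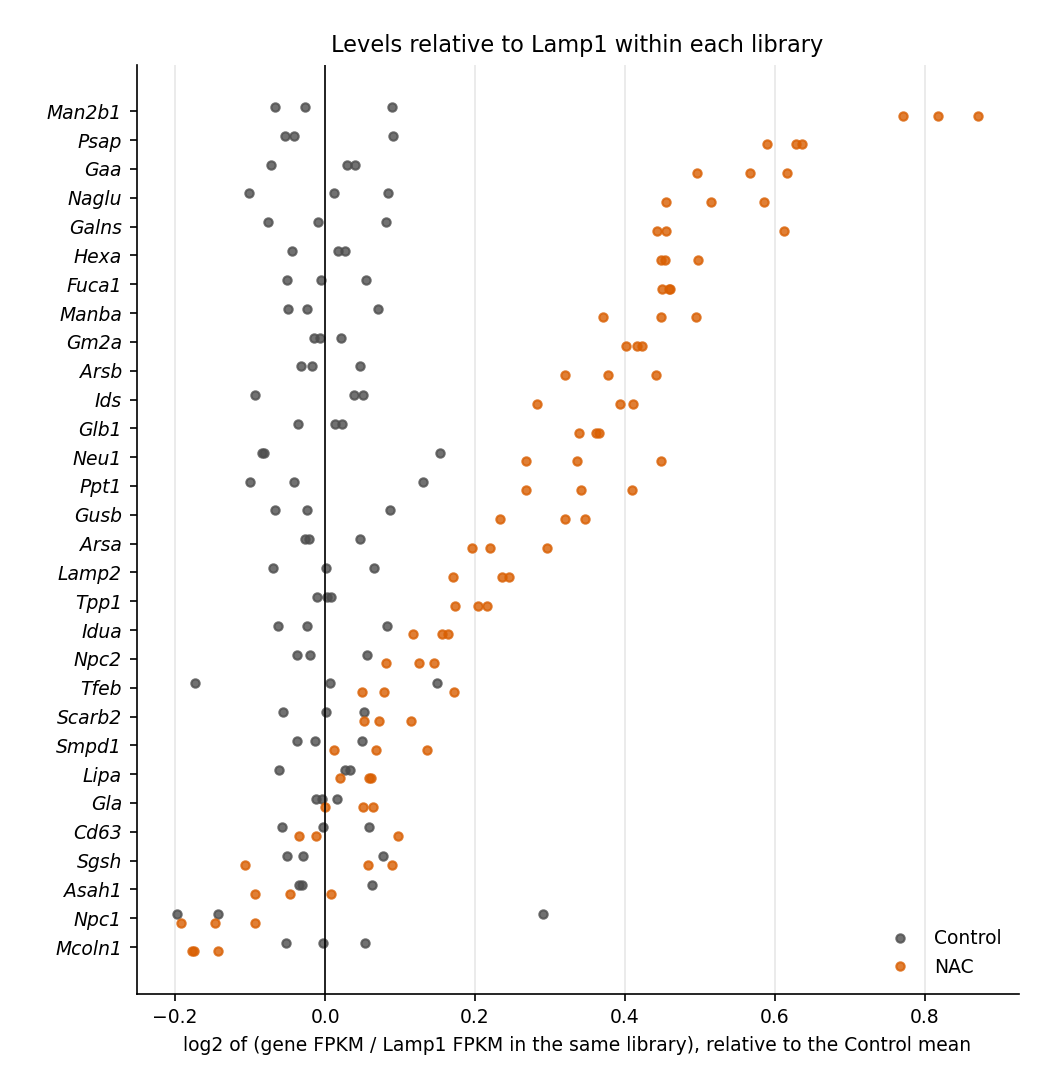
Log2 of each gene's FPKM over the Lamp1 FPKM of the same library, relative to the Control mean, with 1 point per library for 3 Control and 3 NAC libraries. From Man2b1 down to Npc2 (20 genes) all NAC points lie right of all Control points, and Mcoln1 is the 1 gene whose NAC points all lie left of them.

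Other genes of the pathway were taken from lists drawn up by function. Among 33 further hydrolases and cofactors tested, 6 rose and 1 fell (against 6.08% and 2.72% of all tested genes), with a median log2 fold change of 0.041. With library totals 4 rose and 9 fell (against 3.67% and 29.2%), and the median was -0.12. Scpep1, a serine carboxypeptidase, averaged 250.3 ± 7.77 FPKM in Control and 345 ± 16.3 FPKM with NAC (limma adjusted p = 0.00302), and Lgmn, the asparaginyl endopeptidase that processes cathepsins, 118 ± 6.18 FPKM and 153 ± 2.60 FPKM (adjusted p = 0.00651). Plbd2 rose too (0.21), a call lost without Control 3 or NAC 2 (0.20 to 0.21), with quantile normalization (0.10) and with library totals (0.041). Acp2, the lysosomal acid phosphatase, fell from 27.8 ± 0.712 to 20.5 ± 1.22 FPKM (-0.42, adjusted p = 0.00751), and was lower under both scalings. Without single libraries the count of this list that rose was as low as 2 (without NAC 2), 3 without Control 3 or NAC 1, and 4 without Control 1 or NAC 3, and without Control 2 Rnaset2 fell as well. The cathepsins and cystatin C, proteases of the same organelle and their inhibitor, had 7 of 10 tested genes higher (against 6.08% of all tested genes) and none lower, also at an unadjusted p under 0.05 and by limma voom (median 0.33, and 0.16 with library totals; 2 higher with quantile normalization). Among the 7 were Ctsd, the aspartic protease (460.1 ± 15.9 to 617 ± 10.2 FPKM), Ctsb (706 ± 17.3 to 893 ± 23.4 FPKM), Ctsl (397 ± 11.3 to 498 ± 9.05 FPKM) and the collagen-degrading Ctsk (59.7 ± 0.251 to 85.8 ± 0.685 FPKM). The other 3 were Cst3, Ctsa and Ctsh.

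The genes that deliver hydrolases to the lysosome moved both ways. Of 19 tested genes of mannose 6-phosphate tagging and sorting 2 rose and 5 fell (against 6.08% and 2.72% of all tested genes), with a median log2 fold change of -0.10. With library totals 2 rose and 12 fell (against 3.67% and 29.2%), and the median was -0.27. Igf2r, the large mannose 6-phosphate receptor, stood at 93.4, 105 and 98.9 FPKM in Control and 131, 136 and 132 FPKM with NAC, above Control in every NAC library (0.42 ± 0.0481, limma adjusted p = 0.00431, and 0.25 with library totals). Sort1, sortilin, another sorting receptor, rose as well, with means of 8.87 ± 0.308 FPKM in Control and 11.5 ± 0.418 FPKM with NAC (adjusted p = 0.0140), but not without Control 1 or NAC 2 (both 0.32). Of the enzymes that build and uncover the tag, Gnptab and Nagpa fell, while Gnptg, the gamma subunit of the phosphotransferase, did not pass the test as deposited (-0.13, adjusted p = 0.254) and was called lower with library totals (-0.29). Gnptab, which encodes its other subunits, stood at 28.7, 27.6 and 27.7 FPKM in Control and 23.3, 23.4 and 22.5 FPKM with NAC (adjusted p = 0.0129), and Nagpa, the uncovering enzyme, at 12.9, 11.8 and 12.9 FPKM in Control and 9.71, 9.37 and 9.69 FPKM with NAC (adjusted p = 0.0135). For both, every NAC library was below every Control library. The other 3 that fell were Ap3b1, Ap3d1 and Vps26a, subunits of sorting coats. The Gnptab call ended without Control 1, NAC 1 or NAC 2 (-0.28 to -0.25) and that of Nagpa without Control 1, Control 3, NAC 1 or NAC 2 (-0.36 to -0.33). The count of this list that fell was 0 without Control 1, NAC 1 or NAC 2, 1 without Control 3 and 3 without NAC 3, and the count that rose was 1 without Control 1 or NAC 2.

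In the remaining lists few genes were called as deposited, beside 6.08% of all tested genes called higher and 2.72% called lower. Lists of this size are too small to tell such counts from those shares. Those shares are at the adjusted p, and the counts at an unadjusted p below have no share of all tested genes beside them. By limma voom 1054 of the 12733 tested genes were higher and 517 lower. Of 18 tested V-ATPase subunits 1 rose and 1 fell (median 0.0038). Atp6v1d fell from 72.7 ± 0.364 to 60.4 ± 0.375 FPKM (-0.26, limma adjusted p = 0.00552) and Atp6v1a, a catalytic subunit, rose from 29.6 ± 0.207 to 33.7 ± 0.170 FPKM (0.18, adjusted p = 0.0267). Atp6v1a lost its call with library totals (0.015), with eBayes without a trend (adjusted p = 0.0608) and without each of Control 1, Control 3, NAC 1, NAC 2 and NAC 3 (0.18 to 0.19). Among 23 further membrane proteins and transporters 1 rose and none fell (6 lower at an unadjusted p under 0.05 and 2 by limma voom, median -0.096). That gene was Ncstn, nicastrin of the gamma-secretase, with means of 76.6 ± 1.21 FPKM in Control and 90.1 ± 0.790 FPKM with NAC. It was not called with library totals (0.059) or when NAC 2 was left out (0.23), and Lmbrd1 of this list fell without Control 2. None of 22 genes of the TFEB family and of the Ragulator, Rag and mTORC1 machinery that controls it was called by limma or by limma voom (1 higher and 2 lower at an unadjusted p under 0.05, median -0.068), with Lamtor2 at 91.02 ± 2.80 and 90.8 ± 9.02 FPKM and Rheb at 64.1 ± 3.88 and 71.9 ± 1.19 FPKM. Rheb passed as higher without Control 2 (0.21, adjusted p = 0.0235). None of 28 autophagy genes was called by either (0 higher and 5 lower at an unadjusted p under 0.05, median -0.056): Sqstm1, the autophagy receptor p62, stood at 187 ± 4.98 and 173 ± 4.54 FPKM and Gabarap at 271 ± 6.66 and 276 ± 3.62 FPKM. Atg9a was called lower without Control 2. Of 18 genes of late endosome fusion and positioning, Rab7b, a small GTPase of low level (1.47 ± 0.180 to 2.49 ± 0.214 FPKM), rose and none fell (5 lower at an unadjusted p under 0.05 and 0 by limma voom, median -0.064). Rab7b did not pass without the filter on low values (adjusted p = 0.0627) or when any single library was omitted (0.45 to 0.56), and Vps39 of this list fell without Control 2. With library totals the lower calls in these lists came to 9 of the V-ATPase subunits, 11 of the further membrane proteins, 11 of the TFEB and mTORC1 genes, 18 of the autophagy genes and 9 of the fusion genes, beside 29.2% of all tested genes, and their medians lay between -0.26 and -0.16.

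**Figure D4:**
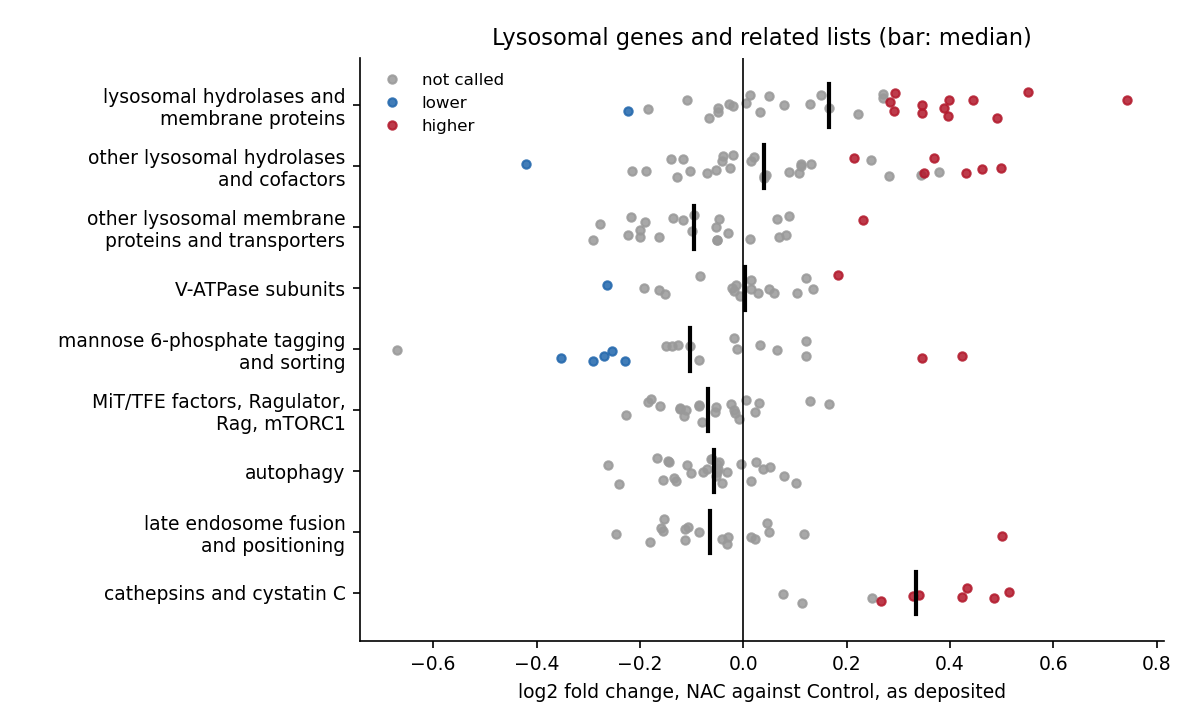
Log2 fold change (NAC against Control, as deposited) of the 31 genes and of the tested genes of 8 related lists, 1 point per gene, coloured by the limma call, with a bar at each median. The medians of the 31 genes and of the cathepsins are 0.17 and 0.33, while the other lists centre between -0.10 and 0.041.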

How the data were processed

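The authors deposited 1 table of FPKM values for 33300 genes (32545 with rat Ensembl identifiers). The sources used here give no aligner, counter or strand use, and without strand a gene and its antisense partner share reads. Per the submitters' processing notes the builds were GRCm38 and mm10, both of mouse, so coordinates are given without a build. Columns headed N 1 to N 3 belong to the Control samples by their number and by elimination. Whole reads were recovered from FPKM and the deposited gene lengths (100% of values whole within 0.01). The authors' divisor was 1.02 to 1.04 times these totals in Control and 0.909 to 0.925 times in NAC, by a method that is not stated.

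The test was limma 3.58.1 (R 4.3.3; two-sided, a trended eBayes fit with group alone) on log2(FPKM + 1), which understates changes of low genes. It was tested on simulated data. Libraries within a group differed beyond sampling noise, with chi-square values of 3.59 to 9.20 per degree of freedom. Members, lists and tests were chosen with earlier results of these data known. Named genes are all 31 members and, from each of 8 related lists, up to 4 called genes with the lowest adjusted p or else the 2 most abundant (any other named gene was picked with its values known). Of 189 list entries 2 matched by an older RefSeq name and 6 had none. The 16 alternatives were a pseudocount of 0.1, no filter, a mean of at least 5 FPKM, library totals, median of ratios, quantile normalization, eBayes without trend or robust, a replicate block, voom on the recovered reads and leaving out each library. Python 3.11.15 (numpy 2.4.6, pandas 2.3.3, matplotlib 3.10.9) made tables and figures.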

Additional observations from a re-analysis of the deposited data

How the results depend on the processing

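Among the 12 lysosomal genes called higher, 6 (Fuca1, Gaa, Hexa, Man2b1, Naglu and Psap) kept the call in all 16 alternatives. The members called higher numbered 16 with voom on the recovered reads, 9 with library totals and 8 to 12 when 1 library was left out. The members called lower numbered 10 with library totals, 3 with quantile normalization and 0 with the replicate block, and 0 to 1 when 1 library was left out. Their median log2 fold change of 0.17 became -0.0037 with library totals and 0.14 to 0.19 without 1 library. Over all tested genes the counts higher and lower (774 and 346) became 467 and 3722 with library totals, 549 and 207 without a filter, 549 and 206 without a trend, and 264 to 859 and 51 to 347 without 1 library. As deposited 69.1% of the called genes were higher, with library totals 11.1% and with quantile normalization 58.2%. Replicate numbers were not taken as pairs, since the sample titles do not say that they pair samples. Deviations of same-numbered libraries correlated at 0.063, 0.059 and -0.050, and those of libraries with different numbers at -0.11 to 0.065. With the replicate block 466 genes were higher and 110 lower, and 10 members were higher (Arsb and Ids lost their calls). Among the related lists, counts higher of 2 cathepsins with quantile normalization and of 3 other hydrolases without a filter, and 2 sorting genes lower with the block, moved by over 1.5 times.

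The sign of a gene that was not called turned with library totals for Arsa (-0.0037), Idua (-0.093), Lamp2 (-0.023), Npc2 (-0.12), Scarb2 (-0.16), Smpd1 (-0.17), Tfeb (-0.12), Tpp1 (-0.044), Gabarap (-0.15) and Rheb (-0.0069). With quantile normalization it turned for Gabarap (-0.13), Npc2 (-0.11), Scarb2 (-0.048) and Smpd1 (-0.086). Without 1 library it turned for Lamtor2 (-0.071 to 0.071), Lipa (-0.038 to 0.0066), Scarb2 (-0.0082 to 0.025), Sgsh (-0.081 to 0.0029), Smpd1 (-0.030 to 0.043) and Tfeb (-0.029 to 0.082). The cause was not tested. The least covered members were Sgsh, with 134 to 163 reads per library, and Tfeb, with 177 to 215, and the part of depth in their turns was not tested.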

Other observations

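The second, smaller mannose 6-phosphate receptor, M6pr, chosen after its values were seen, varied more among the Control libraries than between the groups. It stood at 14.7, 7.35 and 3.98 FPKM in Control and at 4.08, 4.30 and 5.02 FPKM with NAC (log2 fold change -0.67 ± 0.376, limma adjusted p = 0.308). Control 1 was the highest library, and Control 3 lay below all 3 NAC libraries. Npc1 was 7.24%, 9.53% and 7.44% of Npc2 in Control and 6.70%, 6.87% and 6.70% with NAC, lower in every NAC library than in any Control library, with Control 2 the highest.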
